A study of Mus musculus with 12 samples.

Results

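Chromatin regulators write, read and remove marks on histones or move nucleosomes, and so set which genes a cell can use. The 42 genes described here encode such proteins and form a list of symbols that was drawn up with earlier results of these data known, without a threshold on any value. They were 5 genes of Polycomb repressive complex PRC2, 9 of PRC1, 8 histone lysine demethylases and 9 histone deacetylases. Another 6 were histone lysine methyltransferases, and 5 were grouped as coactivators and nucleosome remodellers. That group of 5 includes Asxl1, which encodes a partner of the deubiquitinase BAP1 rather than a coactivator or remodeller. All 42 symbols were found, with 1 row each, among the 37544 mouse gene areas of the table, and all 42 passed the filter on low signal that 28159 gene areas passed.

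PRC2 methylates a lysine of the histone H3 tail to mark silent genes, and PRC1 binds that mark and ubiquitinates histone H2A. Demethylases and deacetylases take lysine marks off again, while the acetyltransferases p300 and CBP add acetyl groups at active enhancers and promoters. In T cells these enzymes are known to restrain or permit the cytokine genes of alternative helper fates. The data measured none of these histone marks and no RNA. They show where the genes of the machinery themselves carried 2 forms of modified cytosine in DNA: 5-methylcytosine (5mC) and 5-hydroxymethylcytosine (5hmC), which Tet enzymes make from 5mC and which often marks the bodies of active genes.

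Sonicated and denatured mouse DNA was precipitated with antibodies against 5mC or 5hmC from naive T cells and from Th1, Th2, iTreg and Th17 cells, 1 library per cell type and antibody. Th17 cells also gave 1 library with control IgG and 1 of input DNA. The series design names mice in which CD2(Cre) deletes a floxed Tet2 gene, with wild-type littermates on a mixed background. CD2-driven Cre acts in the lymphoid lineage. The labels do not say which genotype gave which library, nor the culture conditions, the age of the mice or whether animals were pooled. Values are the authors' mean signal over each gene area in deposited units, rounded to 1 decimal. The number of reads behind a value is unknown, so no counting error can be given, and with 1 library per group a difference between cell types has no replicate check.

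The labels were checked by DNA signal at lineage genes. Ifng and Tbx21 had most 5hmC in the Th1 library (22.6 and 54.8) and Il4 and Il13 in the Th2 library (82.6 and 69.0). Il17a had 31.3 in the library labelled iTreg and 8.8 in the library labelled Th17, and Foxp3 had 25.3 and 30.9. These go against both labels, so the names "labelled iTreg" and "labelled Th17" are kept for the 5hmC libraries. The main counts that rest on them are also given for Th1 and Th2 alone. Lef1, a gene of naive T cells, had most 5hmC in the naive library (127.9, against 22.2 to 40.9). No such check was made for the 5mC, input and IgG samples. The B cell gene Cd79a had a 5hmC signal of 159.2 in the naive library and 28.3 to 49.3 in the others, and Ms4a1 had 8 and 4.4 to 7.7. The summed 5hmC signal of 4 myeloid genes (Lyz2, Itgam, Csf1r and Cd14) was 107.5 in the naive library and 62.3 to 80 in the others. None of these 6 genes was at 0 in any 5hmC library, and 5 of them were highest in naive cells, as most members were, while Csf1r was lowest there. These are DNA signals, not expression, and the part of other cells in the results was not tested. In such bulk DNA, a change in the mix of cells and a change of the mark per cell cannot be told apart.

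Both marks sit mostly on cytosines of CG pairs, which were counted in the stretch before a gene's start. Such a count does not show how many of the pairs carried a mark. RefSeq promoters of build GRCm38.p6 were found for 35 of the 42 members, as 49 windows of 250 bases before an annotated start. The median window of the members held 21 CG pairs (range 0 to 44), against 6 over the 32851 windows of 27025 genes. At least 10 CG pairs stood in 85.7% of the member windows and in 37.8% of all windows. CG reads the same on both strands. The windows below, each the one farthest upstream of its gene, belong to the 2 coactivator and remodeller genes with the largest 5hmC difference from naive cells and to a gene with many CG pairs that differed less. CG pairs are in capitals, and each sequence runs 5′ to 3′ on the strand of the gene. Coordinates of the windows are on GRCm38.p6, not on the build of the signal values.
Arid1a (chr4:133756770-133757019, minus strand): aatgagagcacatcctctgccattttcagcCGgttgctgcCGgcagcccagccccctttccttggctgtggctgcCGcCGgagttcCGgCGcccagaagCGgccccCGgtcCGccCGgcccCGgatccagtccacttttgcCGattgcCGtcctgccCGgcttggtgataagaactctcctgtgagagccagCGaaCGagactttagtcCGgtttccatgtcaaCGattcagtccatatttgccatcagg
Smarca4 (chr9:21615919-21616168, plus strand): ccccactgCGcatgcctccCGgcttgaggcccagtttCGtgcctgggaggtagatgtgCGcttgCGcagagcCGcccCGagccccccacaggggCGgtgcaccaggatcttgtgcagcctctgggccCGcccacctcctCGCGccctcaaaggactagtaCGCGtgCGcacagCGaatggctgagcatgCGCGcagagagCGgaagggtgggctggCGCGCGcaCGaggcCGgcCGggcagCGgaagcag
Crebbp (chr16:4213405-4213654, minus strand): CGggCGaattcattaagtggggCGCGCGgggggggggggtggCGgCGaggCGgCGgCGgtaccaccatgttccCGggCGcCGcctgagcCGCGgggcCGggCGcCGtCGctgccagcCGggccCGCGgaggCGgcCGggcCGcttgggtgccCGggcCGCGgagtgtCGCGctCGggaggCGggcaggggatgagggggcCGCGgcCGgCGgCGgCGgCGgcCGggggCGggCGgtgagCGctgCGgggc

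The Arid1a window held 18 CG pairs, that of Smarca4 25 and that of Crebbp 44. A second Arid1a window, farther downstream, held 33. Over the 35 members, Spearman's rho of the CG count in the farthest upstream window was 0.085 with the naive 5hmC signal and -0.290 with the 5hmC difference from naive. The window farthest upstream need not be the start of the measured gene area. The gene area values are means over whole genes and do not resolve these windows. What follows concerns the whole gene areas, with positions on build mm9 as the table gives them.

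The 42 gene areas carried clear 5hmC signal. In naive cells the lowest had 9.7 (Phc1), the median 22.5 and the highest 138.2 (Hdac7), against a median of 16.7 over the 28159 gene areas. All 42 had at least 2-fold more 5hmC signal in the library labelled Th17 than IgG signal, as did 97.4% of all gene areas. IgG signal at the members ran from 0.2 to 3.9, highest at Kdm2a, and 0 members had more IgG than 5hmC signal in that library. This comparison rests on the deposited scale: with each library divided by its median, 9 members passed, and 29.2% of all gene areas.

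Most members had less 5hmC in the differentiated libraries than in the single naive library. The genotype of each library is unknown. A difference of cell type, of genotype or of a single library therefore cannot be told apart. The naive library was the highest of the 5 at 35 of 42 members, or 83.3%, while 44.9% of all gene areas had their highest value there, and 57.5% of the 21437 with a naive signal of at least 9.7, that of the lowest member. Against the Th1 and Th2 libraries alone, naive was highest at 35 members too, at 52.7% of all gene areas and at 64.8% of the 21437. The library labelled Th17 was the lowest of the 5 at 31 members (73.8%), against 36.3% of all gene areas. The median log2 difference from naive over the members was -0.68 in Th1, -0.57 in Th2, -0.77 in the library labelled iTreg and -1.18 in that labelled Th17. Over all gene areas the same medians were -0.26, -0.21, -0.24 and -0.37, and over the 21437 they were -0.43, -0.38, -0.42 and -0.61. All log2 differences are on the log2(signal + 0.2) scale.

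**Figure D1:**
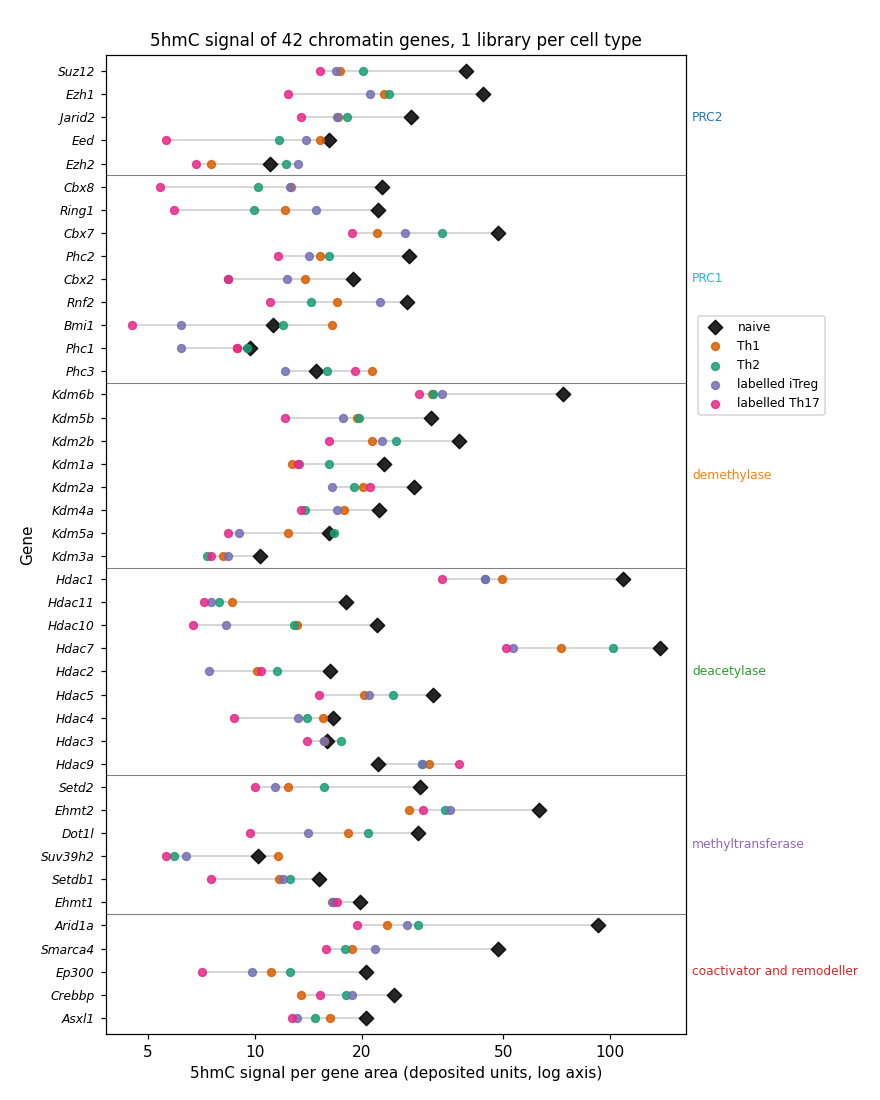
5hmC signal per gene area (horizontal log axis, deposited units) for the 42 chromatin genes by role, with 1 point per library (black diamonds for naive cells, circles for the others) and a grey line across the 5 values. The diamond stands at the right end for 35 of 42 genes, and at the left end for Hdac9.

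Without replicates, members were counted by size alone, from a log2 difference of 1 upwards. Of the 42, 9 were at least 2-fold below naive in Th1 (21.4% of members against 16.1% of all gene areas). In Th2 there were 8 (19.0% against 14.8%). The library labelled iTreg had 13 (31.0% against 14.7%), and that labelled Th17 25 (59.5% against 25.6%). The Th1 and Th2 shares lay near the background. The difference from naive also went with the naive level: over all gene areas Spearman's rho between them was -0.647, and over the members -0.739, both sharing the naive value. Among the 21437 gene areas the shares below naive were 20.4%, 18.5%, 18.7% and 32.5%. The Th1 and Th2 counts of members did not stand out from those shares, whereas the counts in the libraries labelled iTreg and Th17 were larger. All 4 comparisons share the naive library. Not one member was 2-fold above naive in any library, against 11.0% of all gene areas. That share was not computed for the 21437, so this absence has no background at the naive level of the members.

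Scaling mattered for these counts. Median-ratio scaling shifted the differences from naive by 0.19, 0.15, 0.16 and 0.30 upwards in Th1, Th2 and the libraries labelled iTreg and Th17. It left 5, 6, 7 and 17 members at least 2-fold below naive, against 10.7%, 10.6%, 10.2% and 16.9% of all gene areas. Ranks need no scaling between libraries. In rank among all gene areas, 25 members (59.5%) stood lower than in naive in each of the other 4 libraries, against 27.7% of all gene areas and 35.1% of the 21437. In Th1 and Th2 alone it was 27 members (64.3%) against 37.7% of all gene areas and 45.1% of the 21437. The median change in rank, averaged over the 4 libraries, was -10.5 percentile points for the members, 0.59 for all gene areas and -3.89 for the 21437. The change was below 0 at 38 of 42 members (90.5%, against 48.7% of all gene areas and 59.3% of the 21437). Averaged over Th1 and Th2 alone, the medians were -7.02, 0.21 and -3.03. In that average 35 members lay below 0 (83.3%, against 49.4% of all gene areas and 57.8% of the 21437). The mean log2 5hmC lay below naive at 40 members (95.2%, against 64.4% of all gene areas and 76.8% of the 21437). By Th1 and Th2 alone it did so at 38 (90.5%, against 63.4% and 74.7%).

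**Figure D2:**
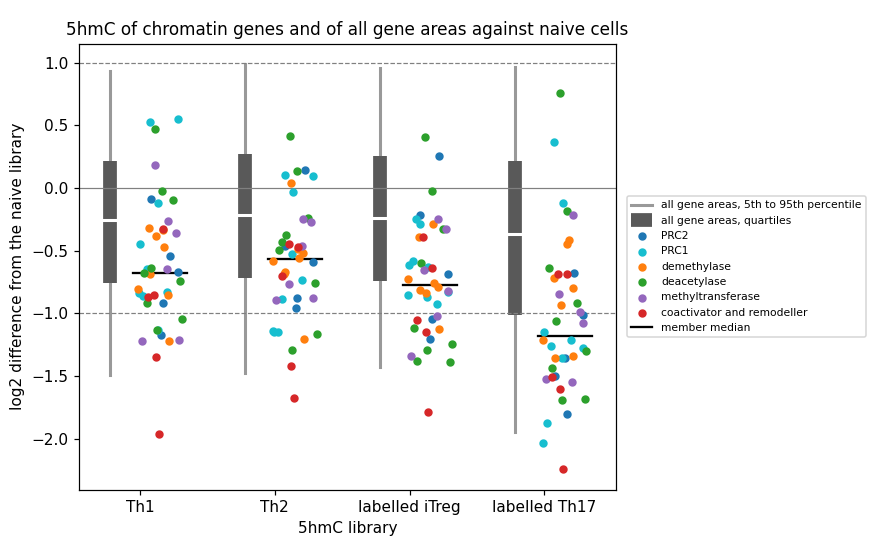
Log2 difference in 5hmC from the naive library (vertical axis, dashed lines at 2-fold) in each of the 4 differentiated libraries, with grey bars for the quartiles and the 5th to 95th percentile of 28159 gene areas (white line at the median) and points for the 42 members by role. The black line at the member median lies lowest, at -1.18, in the library labelled Th17.

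At 5 members 5hmC was at least 2-fold below naive in every differentiated library, namely Arid1a, Smarca4, Hdac1, Hdac11 and Kdm6b. They are 11.9% of the members, where 6.13% of all gene areas and 8.05% of those with a naive signal of at least 9.7 did the same. Th1 and Th2 alone gave the same 5, against 9.25% of all gene areas and 12.1% of those with a naive signal of at least 9.7. The count for Th1 and Th2 thus did not stand out from gene areas of that level. Under median-ratio scaling 1 of them, Arid1a, was left, against 3.56% of all gene areas.

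Among coactivators and remodellers, 5hmC was highest in naive cells at all 5 genes (44.9% of all gene areas), with a median difference of -1.03. Arid1a encodes the subunit that defines the canonical BAF form of the SWI/SNF nucleosome remodeller (chromosome 4, 133234922 to 133309525, minus strand). It had 92.6 in naive cells, 23.6 in Th1, 28.8 in Th2, 26.7 in the library labelled iTreg and 19.4 in that labelled Th17. The naive value stood far above the other 4, which lay close together, and the mean log2 difference was -1.92 (SD 0.25 over the 4 libraries), the largest of the 42. Smarca4, which encodes the BRG1 ATPase that drives the same remodeller (chromosome 9, 21420612 to 21508673), had 48.3 in naive cells and 18.8, 17.9, 21.7 and 15.8. Its mean difference was -1.38 (SD 0.19), and again the 4 did not overlap the naive value. The acetyltransferase genes differed from each other in size. Ep300, encoding p300, had 20.5 in naive cells and 11.1, 12.5, 9.8 and 7.1, while Crebbp, encoding its relative CBP, had 24.6 and 13.5, 18.0, 18.7 and 15.2. The mean differences were -1.03 for Ep300 and -0.60 for Crebbp. Asxl1, a partner of the deubiquitinase BAP1, differed least of the group, with 20.5 against 16.3, 14.7, 13.1 and 12.7.

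Among the deacetylases, the naive library was highest at 7 of 9 (77.8% against 44.9% of all gene areas), and the class I and class IIa enzymes each held both large and small differences. Hdac1, a class I enzyme of the Sin3, NuRD and CoREST complexes (chromosome 4, 129193347 to 129219889), had 109.0 in naive cells, 49.7 in Th1, 44.4 in Th2, 44.4 in the library labelled iTreg and 33.6 in that labelled Th17. All 4 lay well below naive, with a mean difference of -1.35 (SD 0.24), yet Hdac1 kept a high rank, with a mean percentile of 95.4 in these 4 libraries. Its close relative Hdac2 had 16.3 in naive cells and 10.1, 11.5, 7.4 and 10.4. Hdac3, the deacetylase of the NCoR and SMRT corepressors, had 15.9 and then 15.6, 17.5, 15.6 and 14.0, which is nearly level in all 5 libraries. Hdac11, the single class IV enzyme, had 18.0 in naive cells and 8.6, 7.9, 7.5 and 7.2. These 4 values lay close together, and the mean difference of Hdac11 was -1.19 (SD 0.11). Its rank was 37.4 percentile points lower than in naive, the largest change of rank among the members.

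Class IIa deacetylases shuttle between nucleus and cytoplasm and repress through Mef2 factors. Hdac7, which acts in thymocyte selection (chromosome 15, 97623111 to 97662101), had the highest 5hmC of all members in all 5 libraries: 138.2 in naive cells, 72.9 in Th1, 102.2 in Th2, 53.1 in the library labelled iTreg and 50.9 in that labelled Th17. The mean difference was -1.04 (SD 0.47), with the Th2 value nearest to naive. Hdac9 went the other way. It lies on chromosome 12, 35056361 to 35213753, and had 22.2 in naive cells against 30.9, 29.6, 29.5 and 37.6. It was the single member with its lowest value in naive cells, the mean difference of 0.51 (SD 0.16) stayed below 2-fold, and its rank was 25.7 percentile points higher than in naive. Under each of the 6 scaling, filter and background alternatives its mean difference remained between 0.50 and 0.71. Hdac4 had 16.6 and then 15.5, 14.0, 13.2 and 8.7, and Hdac5 had 31.7 and then 20.3, 24.4, 20.9 and 15.1. Hdac10, a class IIb enzyme that deacetylates polyamines, had 22 and then 13.1, 12.9, 8.3 and 6.7.

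**Figure D3:**
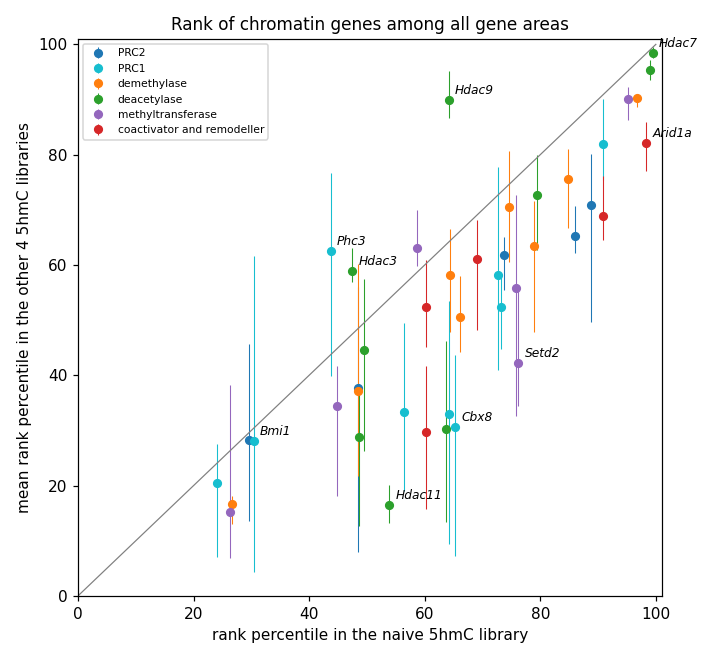
Rank percentile of each member among 28159 gene areas in the naive 5hmC library (horizontal axis) against its mean rank percentile in the other 4 (vertical axis), with whiskers across those 4 libraries, colours for the role and a line at equal rank. Of 42 points, 38 lie below the line, and Hdac9 lies 25.7 points above it.

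All 8 demethylase genes had a mean below naive, as did 64.4% of all gene areas and 76.8% of the 21437. The median difference of the 8 was -0.64. At 1 of the 8, Kdm6b, 5hmC was 2-fold lower in every library (12.5%, against 6.13% of all gene areas). Kdm6b (chromosome 11, 69212009 to 69227176) encodes JMJD3, which removes the methyl mark that PRC2 writes. It had 73.5 in naive cells, 31.5 in Th1, 31.7 in Th2, 33.6 in the library labelled iTreg and 28.9 in that labelled Th17. The 4 values were almost level, with a mean difference of -1.22 (SD 0.09). Kdm5b, which acts on the H3 methyl mark of active promoters, had 31.3 and then 19.4, 19.6, 17.7 and 12.1. Its paralogue Kdm5a had 16.2 in naive cells and 16.7 in Th2, with 12.4, 9.0 and 8.4 in the libraries Th1, labelled iTreg and labelled Th17, so the values did not separate naive from the rest. Kdm2b, which brings a variant PRC1 to CG-rich promoters, had 37.6 and then 21.4, 25, 22.7 and 16.1, while Kdm2a had 28.0 and then 20.1, 19.0, 16.5 and 21.0. Kdm3a differed least, with 10.3 and then 8.1, 7.3, 8.4 and 7.5. Kdm1a, the amine oxidase LSD1, had 23.1 and 12.7 to 16.1 elsewhere, and Kdm4a, which acts on methyl marks of heterochromatin and gene bodies, had 22.3 and then 17.8, 13.8, 17 and 13.5.

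Within PRC2, Suz12 and Ezh1 lay about 2-fold below naive and Ezh2 did not. Suz12, its scaffold subunit (chromosome 11, 79806607 to 79847624), had 39.2 in naive cells and 17.3, 20.1, 16.9 and 15.2 in Th1, Th2 and the libraries labelled iTreg and Th17. Ezh1, one of its 2 alternative catalytic subunits, had 43.8 and then 23.1, 23.8, 21.1 and 12.4. The mean differences of Suz12 and Ezh1 were -1.17 (SD 0.16) and -1.16 (SD 0.44), and neither gene was 2-fold lower in Th2. Ezh2, the other catalytic subunit and the one most abundant in dividing cells, had 11.0 in naive cells, 7.5 in Th1, 12.2 in Th2, 13.2 in the library labelled iTreg and 6.8 in that labelled Th17. Its values lay on both sides of naive, and its mean difference was -0.20 (SD 0.47). Eed, which reads the mark that PRC2 writes, had 16.2 and then 15.2, 11.7, 13.9 and 5.6, with the low value in 1 library. Jarid2, which helps to recruit the complex, had 27.4 and then 17.1, 18.1, 17 and 13.5.

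Of the 9 PRC1 genes, 7 were at least 2-fold below naive in the library labelled Th17 (77.8%, against 25.6% of all gene areas and 32.5% of the 21437). This library was low for other roles as well, with 4 of 5 PRC2 genes and 3 of 5 coactivators and remodellers. Such PRC1 genes numbered 1 in Th1 and 3 in Th2, with 0 for the library labelled iTreg, where 16.1%, 14.8% and 14.7% of all gene areas passed. Cbx8, a chromodomain subunit that binds the PRC2 mark, had 22.7 in naive cells, 12.6 in Th1, 10.2 in Th2, 12.5 in the library labelled iTreg and 5.4 in that labelled Th17. Ring1, a ubiquitin ligase subunit (chromosome 17, 34157736 to 34161624), had 22.2 and then 12.1, 9.9, 14.8 and 5.9. Their mean differences were -1.22 and -1.12 with wide spreads (SD 0.56 each). Cbx8 is the shortest gene area of the members, at 2477 bp, and Ring1 has 3888 bp, so their means rest on fewer positions. The paralogue Cbx7 had 48.4 and then 22, 33.5, 26.4 and 18.8, Cbx2 had 18.9 and then 13.8, 8.4, 12.3 and 8.4, and Rnf2, the second ligase gene, had 26.7 and then 17, 14.4, 22.5 and 11.0. The 3 polyhomeotic genes diverged: Phc2 had 27.1 and 11.6 to 16.2 elsewhere, Phc1 9.7 and 6.2 to 9.5. Phc3 had 14.8 in naive cells, 21.4 in Th1, 15.9 in Th2, 12.1 in the library labelled iTreg and 19.1 in that labelled Th17, and was the other member with a mean above naive (0.18, SD 0.35).

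Among the methyltransferase genes, Setd2 had the lowest mean difference, -1.24 (SD 0.27). It encodes the enzyme that trimethylates H3 along transcribed genes (chromosome 9, 110435100 to 110521136) and had 29.1 in naive cells, 12.4 in Th1, 15.6 in Th2, 11.4 in the library labelled iTreg and 10.0 in that labelled Th17. Ehmt2, encoding the repressive enzyme G9a, had 63.0 and then 27.1, 34.2, 35.5 and 29.8, while its partner Ehmt1, encoding GLP, had 19.8 and then 16.5, 16.6, 16.6 and 17. The 2 genes of this heterodimer thus differed by -0.997 (SD 0.18) and -0.25 (SD 0.02) from naive, and Ehmt1 stood higher in rank than in naive in all 4 libraries. Dot1l, which methylates the globular part of H3, had 28.8 and then 18.3, 20.8, 14.1 and 9.7. Setdb1 had 15.1 and 7.5 to 12.5 elsewhere. Suv39h2 had 10.2 in naive cells, 11.6 in Th1 and 5.9, 6.4 and 5.6 in the other 3.

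The 4 differentiated libraries were also compared with each other, in 6 pairs. Not one member was 2-fold apart between Th1 and Th2, where 3.76% of all gene areas were higher in Th1 and 4.11% in Th2. Suv39h2 came closest, with a log2 difference of 0.95 in favour of Th1, and Ezh2 was the farthest the other way at -0.69. The library labelled iTreg was 2-fold below Th1 at 1 member, Bmi1 (3.58% of all gene areas), and below Th2 at 0 (4.2%). It was above Th1 and Th2 at 0 members (3.93% and 4.02%).

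The larger gaps involved the library labelled Th17. Th1 was 2-fold above it at 5 members, namely Eed, Bmi1, Ring1, Cbx8 and Suv39h2 (11.9% against 7.84% of all gene areas). Th2 was above it at 4, namely Eed, Bmi1, Hdac7 and Dot1l (9.52% against 9.12%). The library labelled iTreg was above it at 4 as well (9.52% against 7.54%), namely Ring1 with 1.30, Eed with 1.28, Cbx8 with 1.18 and Rnf2 with 1.02 on the log2 scale. These shares lay near the background, and the genes were named after their values were seen. The library labelled Th17 was 2-fold above Th1, Th2 and the library labelled iTreg at 0 members (3.08%, 3.42% and 2.92% of all gene areas).

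Other chromatin genes outside the 42 were also mostly highest in naive cells. Of 111 found in the table, 108 passed the filter, 94 were highest in the naive 5hmC library (87% against 44.9% of all gene areas) and 103 had a mean below it (95.4% against 64.4%), with a median of -0.88. At least 2-fold below naive were 39 in Th1 and 39 in Th2 (36.1% each, against 16.1% and 14.8% of all gene areas), larger shares than the 21.4% and 19.0% of the members. The library labelled iTreg had 31 (28.7% against 14.7%) and that labelled Th17 63 (58.3% against 25.6%), while 0 were 2-fold above naive in any of them. In all 4 libraries 19 were lower (17.6% against 6.13%), and in Th1 and Th2 alone 28 (25.9% against 9.25%). By class the 19 were 2 of 22 other Polycomb genes, 0 of 14 demethylases, 6 of 17 deacetylase and corepressor genes, 5 of 25 methyltransferases and 6 of 30 acetyltransferase and remodeller genes. The lowest was Sirt7, a sirtuin of the nucleolus, with 60.7 in naive cells and 12.8 to 23.1 elsewhere. The highest was Asxl3, a paralogue of Asxl1, with 9.6 and 10.6 to 17.8.

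The 5mC signal of the members was low and nearly level between cell types. Medians over the 42 were 0.9 in naive and Th1, 0.8 in Th2, 0.7 in iTreg and 0.8 in Th17, against 0.9, 0.9, 0.8, 0.7 and 0.7 over all gene areas. The lowest value, 0.3, was found at Ezh2, Bmi1 and Hdac11, and the highest, 2.6, at Ring1. Not one member was 2-fold apart from naive in any library, against 12.8% of all gene areas. That share was 2.27% among gene areas of at least 3000 bp, which leave out Cbx8, and 2.41% with a pseudocount of 1. Against these lower shares the absence of such members did not stand out. The Th17 IgG signal was also subtracted from every library, with negative results set to 0. After that 3 members were 2-fold apart from naive, against 20.8% of all gene areas. A gene with more IgG than 5mC signal in every library could not differ, so this count cannot be read as a test. At 25 members the 5 values lay within 0.3 of each other, which is 3 rounding steps. In Th17 cells, on the deposited scale, the 5mC signal was below the input signal at all 42 members, as at 26918 of the 28159 gene areas. It was below the IgG signal at 26 members. The shares of all gene areas for the IgG count and for the range of 0.3 were not computed. The values therefore do not show how much of the 5mC signal lies above background.

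The members with the largest mean log2 5mC differences each way differed from naive by at most 0.6, in steps of 0.1. Kdm5a had 0.5 in naive cells and 0.8, 0.7, 0.7 and 0.8 in Th1, Th2, iTreg and Th17, a mean log2 difference of 0.44. Hdac7 had 1.4 and then 2.0, 1.9, 1.6 and 1.7 (0.32), and Kdm3a 0.4 and then 0.5, 0.6, 0.5 and 0.4 (0.22). All 4 differentiated values lay above naive at Kdm5a and Hdac7. On the low side stood Phc1 with 0.7 and then 0.8, 0.4, 0.4 and 0.4 (-0.40), Phc3 with 1.1 and then 0.9, 0.9, 0.9 and 0.7 (-0.31), and Dot1l with 0.9 and then 0.9, 0.7, 0.7 and 0.5 (-0.31). Over the members, the 5mC and 5hmC differences from naive had a Spearman's rho of 0.075, and the naive 5mC and 5hmC levels one of 0.546. Over all gene areas the same values were -0.159 and 0.39. All are descriptions, since the genes share libraries and, in part, length and base composition.

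**Figure D4:**
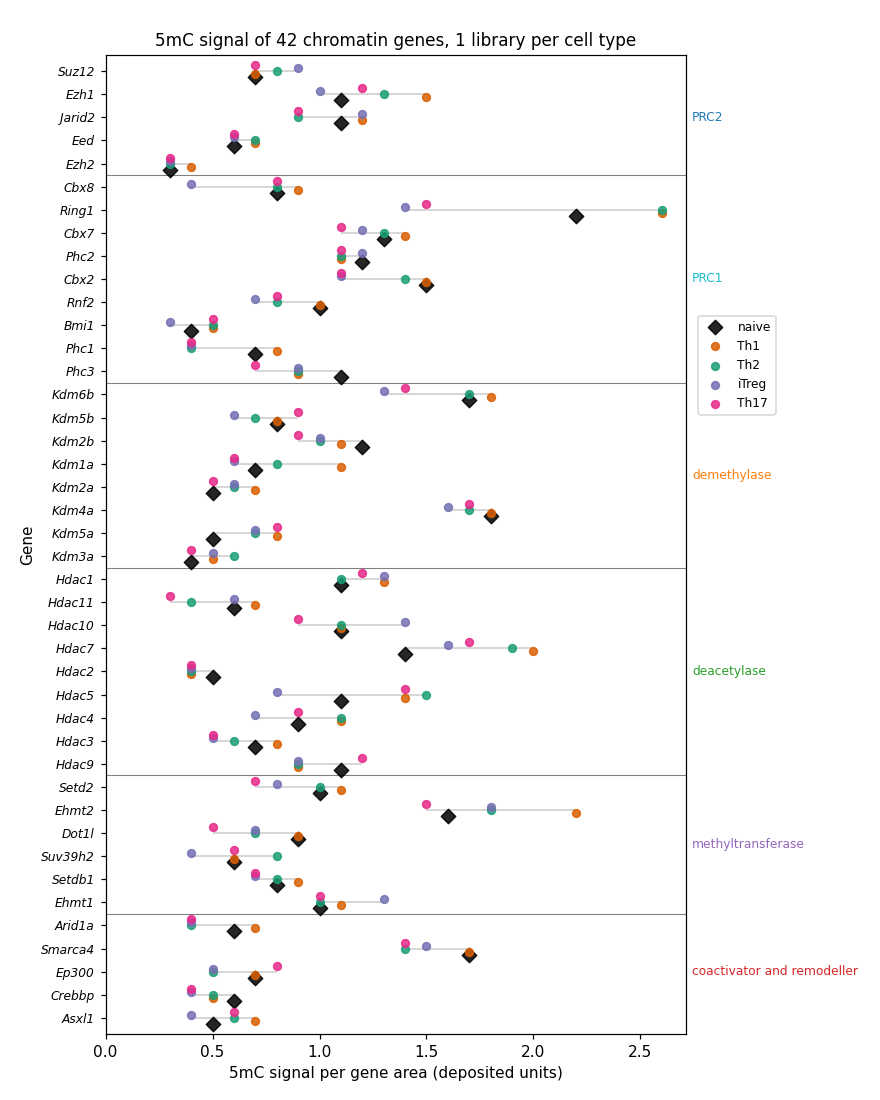
5mC signal per gene area (horizontal axis, deposited units) for the 42 chromatin genes in the order of the 5hmC plot, with 1 point per library, offset vertically to show ties, and a grey line across the 5 values. The values lie within 0.3 at 25 genes, and Ring1 reaches 2.6.

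The 2 marks were then compared within the genes, with the 5 cell types as pairs and after subtracting from each library the log2 value of its median gene area. A value above 0 means that a gene's log2 distance from the median gene area was higher by 5hmC than by 5mC. It is not a difference in rank. Kdm6b in Th2 had 0.22, with a rank percentile of 88.57 by 5hmC and 92.3 by 5mC. The error term here is how much that difference varied from one cell type to the next, since no type has replicates. In limma with cell type as a block, 3 members were called higher in 5hmC (7.14% of members against 10.1% of all gene areas) and 1 lower (2.38% against 7.62%). Calls were made at 2-fold or more with p, adjusted by Benjamini-Hochberg over 28159 gene areas, below 0.05. The median difference was 0.09 over the members and 0.08 over all gene areas, so the members as a whole did not stand apart between the marks.

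Arid1a had the largest difference, 1.68 (SE 0.26, adjusted p = 0.00163 in limma), and lay above 0 in 5 of 5 cell types, from 1.04 in Th1 to 2.92 in naive cells. Hdac7 followed with 1.49 (SE 0.25, adjusted p = 0.00201) and Hdac1 with 1.35 (SE 0.24, adjusted p = 0.00306), each above 0 in 5 of 5. The 5mC signal was 0.6, 0.7, 0.4, 0.4 and 0.4 at Arid1a and 1.1, 1.3, 1.1, 1.3 and 1.2 at Hdac1, in the order naive, Th1, Th2, iTreg and Th17. In all 3 the naive pair gave the largest value. Without naive cells they were still called, at 1.37, 1.24 and 1.08. Ring1 was the one member called lower, at -1.40 (SE 0.24, adjusted p = 0.00225), below 0 in 5 of 5 cell types. Input signal, from Th17 cells only, was 2.4 at Ring1, 2.6 at Hdac7, 1.8 at Hdac1 and 1.7 at Arid1a, and was not subtracted. The 5mC signal of Ring1, 2.2, 2.6, 2.6, 1.4 and 1.5, was the highest of the members in naive, Th1 and Th2 cells. With a pseudocount of 1 its difference was -0.98, short of 2-fold, and under quantile normalization Hdac1 and Hdac7 stood at 0.95 and 0.93, also short of it. Cbx2 (-0.87, adjusted p = 0.00686) and Kdm4a (-0.73, adjusted p = 0.00816) were lower in 5 of 5 cell types, with 5mC of 1.1 to 1.5 and 1.6 to 1.8, and Kdm2a (0.89, adjusted p = 0.00590), Crebbp (0.87, adjusted p = 0.00306) and Hdac9 (0.78, adjusted p = 0.00973) higher in 5 of 5, all by limma and all under 2-fold. An adjusted p below 0.05 in limma, whatever the size, was reached by 10 of 42 members and by 10421 of 28159 gene areas. Such p-values were thus common and do not set these genes apart. Hdac9 differed from Arid1a, Hdac7 and Hdac1 in that its naive pair gave the smallest value, 0.17, against 0.76 to 1.14 in the others. The test of PRC2 genes gave 0 calls. Suz12 was nearest at 0.57 (adjusted p = 0.0759 in limma), with 1.51 in naive cells and -0.03 in iTreg.

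**Figure D5:**
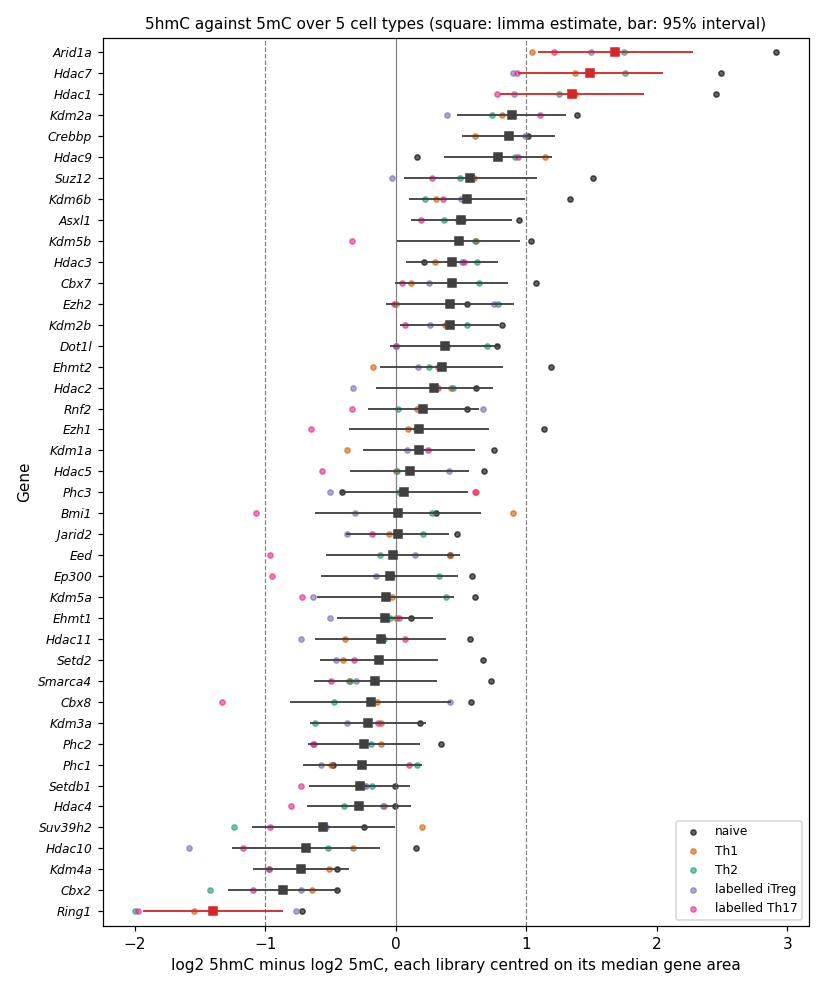
Log2 5hmC minus log2 5mC (horizontal axis, dashed lines at 2-fold), with library medians set to 0, for the 42 members: squares are limma estimates over 5 cell types with 95% intervals, red where called, and small points are the single cell types. Arid1a, Hdac7 and Hdac1 lie highest and Ring1 lowest.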

How the data were processed

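The authors deposited 1 table of signal for the 12 DNA immunoprecipitation libraries: means over gene areas, never negative, given to 1 decimal. CASAVA 1.7.0 and mm9 are named in the submitters' processing notes. Alignment settings, duplicate removal and scaling were not given in the sources used here. Each column carries a number that the title of its library repeats, and 0 columns were unused.

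Of 37752 rows, 208 that repeated a symbol were left out in favour of the row with the highest mean. A pseudocount of 0.2, the 5th percentile of non-zero values, was added before log2 values of the deposited signal were computed. Gene areas with a mean of at least 3.31 over the 10 5mC and 5hmC libraries, the 25th percentile, were kept. Cell types were compared by size, at 2-fold, without a test. For 5hmC against 5mC, limma (version 3.58.1, R 4.3.3) was used with a trended prior and was tested on simulated data. Descriptions and plots came from pandas 2.3.3, numpy 2.4.6, scipy 1.17.1 and matplotlib 3.10.9 under Python 3.11.15.

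The members and lists were chosen with earlier results of these data known. Values in every library are given for the 2 lowest and the 1 highest 5hmC difference of each role, and for the 3 extremes each way in 5mC and between the marks. Most other members are given as well. The alternatives were median-ratio scaling, a pseudocount of 1, other filters and rows, IgG subtraction, other centring, quantile normalization and leaving out libraries. Some marker genes of the label check are not reported here.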

Additional observations from a re-analysis of the deposited data

Results flagged for a closer look

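Bmi1, a PRC1 subunit needed for self-renewal of stem cells, was the single member whose 5hmC lay at least 0.5 (log2) above naive in one library and at least 0.5 below it in another. It had 11.2 in naive cells, 16.5 in Th1, 12.0 in Th2, 6.2 in the library labelled iTreg and 4.5 in that labelled Th17. The differences were 0.55 in Th1, -0.83 in the library labelled iTreg and -1.28 in that labelled Th17. With 1 library each, this difference between cell types was not tested. The share of all gene areas that meet the same rule was not computed, so this count has no background to be read against. The IgG signal at Bmi1 was 1.6 and its 5mC signal 0.3 to 0.5.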

How the results depend on the processing

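The counts of members against naive kept their main value within 1.5 times under no filter, the longest gene area per symbol and gene areas of at least 3000 bp. So did the counts between the marks under no filter and the longest gene area. These settings were not run for the IgG, rank and pairwise counts. Median-ratio scaling lowered the counts 2-fold below naive to 5 in Th1, 7 in the library labelled iTreg and 1 in all 4 libraries. The cause was not tested beyond the shift that this scaling makes. Under it 39 members had a mean 5hmC below naive and 3 above (Phc3, Hdac3 and Hdac9), against 40 and 2, and the median was -0.55 against -0.07 over all gene areas. Subtracting the Th17 IgG signal from every library set negative results to 0. It left 3 members 2-fold apart in 5mC, against 0, with 20.8% of all gene areas. Dividing libraries by their medians left 9 members 2-fold above IgG. Between the marks, quantile normalization left 1 member called higher and a pseudocount of 1 left 0 called lower. Leaving out 1 cell type gave 3 to 4 called higher and 1 called lower, with Kdm2a added without iTreg. Leaving out 1 differentiated library gave 5 to 7 members below naive in all the rest, and 0 with a 2-fold 5mC difference. Leaving the cell type out of the model (no replicate block) gave the same 3 and 1. Exchanging the 5hmC libraries labelled iTreg and Th17 in the pairing, or leaving both cell types out, chosen after seeing the data, gave 3 and 1 too. No 2-fold difference of a member's mean from naive changed sign under any alternative. Rounding to 1 decimal limits the 5mC values and the unknown depth all of them.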
